A study of Mus musculus with 8 samples.

Results

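Fibroblast growth factor (FGF) signalling and its feedback on ERK were followed in 34 mouse genes. They were chosen by gene symbol from the 47643 named entries of the deposited expression table, with earlier results of these data known. The 34 genes comprised 11 Fgf genes, 6 genes for receptors, a receptor-like protein and the adaptor Frs2, and 17 feedback genes of the Spry, Spred, Dusp and Etv families. The study deleted Mettl3, the enzyme that writes N6-methyladenosine (m6A) into mRNA, and asked what this did to bone marrow mesenchymal stem cells (MSCs). RNA-seq covered 2 libraries labelled wild type (WT), from Mettl3fl/fl littermates per the study, and 2 libraries labelled cKO, from Prx1-cre;Mettl3fl/fl mice. MeRIP-Seq, which sequences RNA fragments pulled down by an m6A antibody, covered 2 immunoprecipitates and 2 inputs of wild type cells and gave 1 list of peaks. All 8 samples were C57BL/6 cells flushed from leg bones and kept for 2 days in osteogenic medium with ascorbic acid, β-glycerophosphate and dexamethasone, and the labels give no age or sex. Prx1-Cre is active in limb mesenchyme, so blood cells that grow in such cultures keep the floxed alleles intact. Nothing in the labels says that libraries came from separate animals or cultures, so the p-values measure only the spread between these samples.

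In FGF signalling, a ligand bound together with heparan sulfate or a klotho co-receptor pairs FGF receptors, which pass the signal through Frs2, Grb2 and Sos to Ras, Raf, MEK and ERK. Active ERK switches on genes that hold it in check: sprouty (Spry) and Spred proteins act on the Ras and Raf step, and dual specificity phosphatases (Dusp) take phosphate off ERK and related kinases. Etv transcription factors are classical targets of the pathway. In the skeleton the pathway is known for its part in limb outgrowth, osteoblast formation and, through Fgfr3, restraint of cartilage growth.

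A library held between 23978099 and 34106693 counts, and 15327 genes had enough counts to be tested. The WT-labelled pair differed 32.6 times more than sampling noise would give, and the cKO-labelled pair 1.82 times, so the spread in the tests came mostly from the WT-labelled pair. Mettl3 itself stood at 17.6 and 16.9 CPM (counts scaled to library size) in the WT-labelled libraries and 17.5 and 16.3 CPM in the cKO-labelled ones, with a log2 fold change of -0.03 (adjusted p = 0.824). These counts cover the whole gene and cannot show whether the deleted exons are gone, and for this reason the libraries are called by their labels here. Macrophage markers summed to between 15017 and 20076 CPM and marrow stromal markers to between 3105 and 4722 CPM, so the cultures held both kinds of RNA. In such bulk samples, fewer cells of a type and less RNA per cell cannot be told apart.

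Of the 34 genes, 29 were tested, and their log2 fold changes (cKO-labelled against WT-labelled) had a median of -0.65, against -0.00 over all genes tested. By edgeR's quasi-likelihood test at an adjusted p under 0.05, 20 were called, beside 30.5% of all genes tested: 14 were lower (16.8% of all genes) and 6 were higher (13.7% of all genes) in cKO-labelled libraries. At least 2-fold changes were seen in 10 lower genes and 1 higher gene (6.41% and 2.79% of all genes, 9.2% in either direction). The libraries of the 2 groups did not overlap for 27 of the 29 genes, where 68.9% of all genes tested did not overlap. Of the 14 falls, 5 were Fgf genes, 3 were receptors and 6 were feedback genes, and all 6 rises were feedback genes. The number of genes called depended on single libraries: without cKO library 2 there were 2 higher and 11 lower, without cKO library 1 there were 3 and 11, without WT library 1 there were 8 and 16, and without WT library 2 there were 10 and 14.

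**Figure D1:**
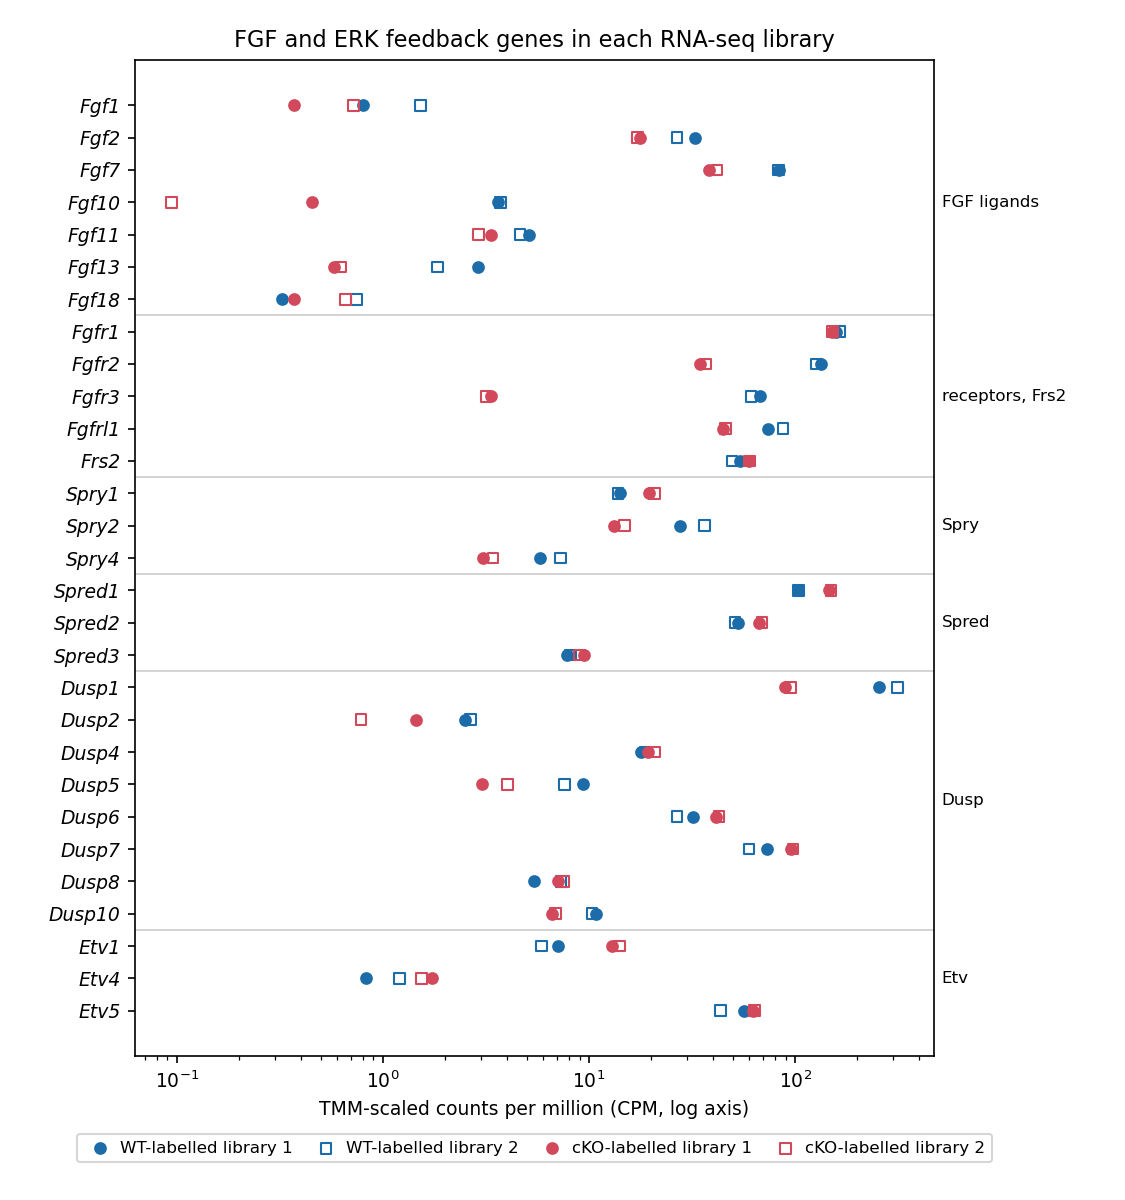
Level of each tested gene in the 4 RNA-seq libraries, as TMM-scaled CPM on a log axis; each point is 1 library, filled for library 1 and open for library 2. Red points (cKO-labelled) lie left of blue points (WT-labelled) for most ligands and receptors, with Fgfr3 falling from 67.2 and 61.2 to 3.34 and 3.17 CPM, and right of them for Spred1, Dusp6, Dusp7 and Etv1.

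Of the 7 Fgf genes tested, 5 fell and none rose, with a median log2 fold change of -1.03. Among these 5, Fgf11 and Fgf13 do not encode secreted ligands. Fgf7, known as keratinocyte growth factor and made by mesenchyme, was the most abundant per length. It held 79.6% and 78.7% of the summed TPM of the 11 Fgf genes in WT-labelled libraries and 80.0% and 79.7% in cKO-labelled ones. It stood at 83.4 and 83.2 CPM in WT-labelled libraries and at 38.1 and 41.7 CPM in cKO-labelled libraries. Both cKO-labelled values lay far below both WT-labelled values, a 2.09-fold fall (log2 fold change -1.06, SE 0.0709, adjusted p = 0.000183). The summed TPM of the Fgf genes fell with it, from 81.9 and 74.4 to 40.5 and 43.2, so the share of Fgf7 hardly moved while the sum did.

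Fgf2, a ligand that osteoblasts store in matrix, was present at 32.7 and 26.7 CPM in WT-labelled libraries and 17.6 and 17.2 CPM in cKO-labelled libraries. The groups did not overlap, and the fall was 1.71-fold (log2 fold change -0.77, SE 0.117, adjusted p = 0.00457). Fgf2 held fractional counts. In the coordinates of the expression table its span (chr3:37348346-37410108) overlaps that of Nudt6 (37404910-37420211), so reads could be shared between them. The spans of Bbs12 and Cetn4 there end before Fgf2 starts, and only the mm9 gene models place exons of Fgf2 over theirs. Nudt6, the antisense neighbour, had a log2 fold change of 0.02 (adjusted p = 0.950), Bbs12 of 0.45 (adjusted p = 0.313) and Cetn4 of -0.80 (adjusted p = 0.0183).

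Fgf10, a mesenchymal ligand of limb and lung buds, was scarce and fell most among the ligands. It had 122 and 105 counts in WT-labelled libraries (3.61 and 3.71 CPM) and 11 and 3 counts in cKO-labelled libraries (0.454 and 0.0941 CPM), a fitted fold of 14.2 (log2 fold change -3.83, SE 0.494, adjusted p = 0.00252). The cKO-labelled values were near the limit of detection, which makes the size of the fall imprecise (95% confidence interval of the log2 fold change -5.02 to -2.64). Fgf13 and Fgf11 encode FGF homologous factors that stay inside the cell and do not act as secreted ligands. Fgf13 went from 2.90 and 1.84 CPM to 0.578 and 0.628 CPM (3.92-fold lower, adjusted p = 0.00800). Fgf11 went from 5.12 and 4.63 CPM to 3.34 and 2.92 CPM, with a log2 fold change of -0.65 (adjusted p = 0.0373). The Fgf11 call was lost without cKO library 1 (adjusted p = 0.155) and without cKO library 2 (adjusted p = 0.290), whereas the Fgf13 call held without each library.

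Fgf1 and Fgf18 were tested and not called. Fgf1, which can bind all FGF receptors, had 0.799 and 1.52 CPM in WT-labelled and 0.371 and 0.722 CPM in cKO-labelled libraries (log2 fold change -1.03, 95% confidence interval -2.22 to 0.16, adjusted p = 0.165). Without WT library 1 its adjusted p was 0.00530. Fgf18, a ligand that acts on chondrocytes and osteoblasts, had 11 and 21 counts in WT-labelled and 9 and 21 counts in cKO-labelled libraries, and its log2 fold change of 0.00 had a 95% confidence interval of -1.26 to 1.27, so a change within that interval, 2-fold included, was not detectable at this depth. The other 4 ligand genes had too few counts for a test. Fgf5 had 5 and 6 counts against 0 and 0, at least 3.25-fold lower when a floor of 3 counts over the group is used, and Fgf21, a liver hormone that needs β-klotho, had 13 and 2 counts against 0 and 0, at least 4.43-fold lower over both libraries. The Fgf21 bound rests on WT library 1, since the 2 counts of WT library 2 lie under the floor. Fgf9 had 0 and 2 against 1 and 4 counts, and Fgf23, the bone hormone that lowers phosphate, had 1 and 2 against 0 and 0 counts, both at or near the floor.

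Of the 5 receptor and adaptor genes tested, 3 fell and none rose. Fgfr3, the receptor that restrains growth plate cartilage, changed most of all 29 genes. It stood at 67.2 and 61.2 CPM in WT-labelled libraries and at 3.34 and 3.17 CPM in cKO-labelled libraries, 64.2 ± 4.25 against 3.26 ± 0.123 CPM (SD, n = 2). The groups were separated widely, by 19.7-fold (log2 fold change -4.30, SE 0.103, adjusted p = 4.04e-06 by edgeR). The chondrocyte markers moved the same way: 5 of the 6 tested (Sox9, Acan, Col2a1, Comp and Chad) were lower, and the list summed to 3541 and 3578 CPM in WT-labelled and 84.5 and 83.9 CPM in cKO-labelled libraries. No defining marker of that list was at 0 over a group, and the part of these cells in the fall of Fgfr3 was not tested.

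Fgfr2, a receptor of osteoblast precursors, was 133 and 127 CPM in WT-labelled libraries and 34.5 and 36.6 CPM in cKO-labelled libraries. Its 2 groups did not overlap, with a 3.66-fold fall (log2 fold change -1.87, SE 0.0670, adjusted p = 1.59e-05). It held fractional counts and shares exon sequence on the same strand with Ctbp2 in the table, which had a log2 fold change of 0.28 (adjusted p = 0.0304). Fgfrl1, a receptor-like protein without a kinase domain, went from 73.4 and 87.4 CPM to 44.9 and 46.0 CPM, 1.77-fold lower (log2 fold change -0.82, SE 0.0940, adjusted p = 0.00157). Fgfr4 had too few counts for a test, with 4 and 11 against 0 and 0. This is at least 4.43-fold lower over both libraries when a floor of 3 counts over the group is used. The Fgfr4 bound rests mostly on WT library 2, since the 4 counts of WT library 1 lie close to the floor. Marrow stromal markers summed to 4722 and 4559 CPM in WT-labelled and 3105 and 3150 CPM in cKO-labelled libraries, with 5 lower and 4 higher members of 10. Most of that sum was collagen RNA, of Col1a1 (1896 and 1921 against 1225 and 1259 CPM) and Col1a2 (1862 and 1759 against 811 and 829 CPM). Prrx1 (log2 fold change 1.05) and Thy1 (4.59) were among the higher members. The sum therefore does not measure the amount of stromal cells. The part of these cells in the falls of Fgfr2 and Fgfrl1 was not tested.

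Fgfr1, the main FGF receptor of mesenchymal cells, stood at 157 and 165 CPM in WT-labelled and 152 and 152 CPM in cKO-labelled libraries. Its log2 fold change was -0.09 (95% confidence interval -0.23 to 0.06, adjusted p = 0.315). On the TPM scale the sign was the other way, at 0.11, and without WT library 1 the gene was called lower at -0.12 (adjusted p = 0.00353). Frs2, which carries the signal from the receptors to Grb2, had 54.0 and 49.4 against 59.4 and 59.9 CPM (log2 fold change 0.21, adjusted p = 0.0725), and it was called higher without WT library 1 (adjusted p = 7.09e-07) or WT library 2 (adjusted p = 0.0155). Per length, the 4 kinase receptors summed to 181 and 169 TPM in WT-labelled and 115 and 125 TPM in cKO-labelled libraries. Fgfr1 made up 53.1% and 53.6% of that sum in WT-labelled libraries and 82.9% and 85.3% in cKO-labelled libraries. Fgfr2 went from 29.1% and 30.0% to 15.6% and 13.4%, and Fgfr3 from 17.7% and 16.1% to 1.47% and 1.26%. Fgfr1 thus held most of the pool in every library, and a larger share of it in cKO-labelled ones.

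The transcripts of Fgfr1, Fgfr2 and Frs2 carried m6A peaks with their summits in exons, and Fgfr3 carried none in the list. The core of the m6A consensus is GGAC, and the nearest GGAC to a summit is shown in capitals for the peaks at the ends of the coding sequences of Fgfr1 (exon 18 of 18, plus strand, chr8:26684366-26684389, mm9) and Fgfr2 (exon 18 of 18, minus strand, chr7:137307547-137307570, mm9) and for the peak inside the last exon of Frs2 (minus strand, chr10:116511641-116511664, mm9), written 5′ to 3′ on the RNA strand. They are printed for the receptor that fell and for the receptor that was not called. The peaks held 5 (Fgfr1), 3 (Fgfr2) and 5 (Frs2) GGAC, so the windows do not show which site was methylated.
Fgfr1: tgccaacagtGGACtcaaacggcg
Fgfr2: gttcttcaggGGACgattctgtgt
Frs2: acacggagtgGGACaccggctatg
The adenine of the GGAC lay 9 bases from the summit in Fgfr1 and 41 bases in Fgfr2, both in coding sequence shortly before the stop codon. The fold enrichments there were low, 2.14 for Fgfr1 and 2.82 for Fgfr2, ranked 9689 and 8178 of all 10160 peaks. Fgfr1 had another peak in its 5′ UTR with a fold of 4.62.

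**Figure D2:**
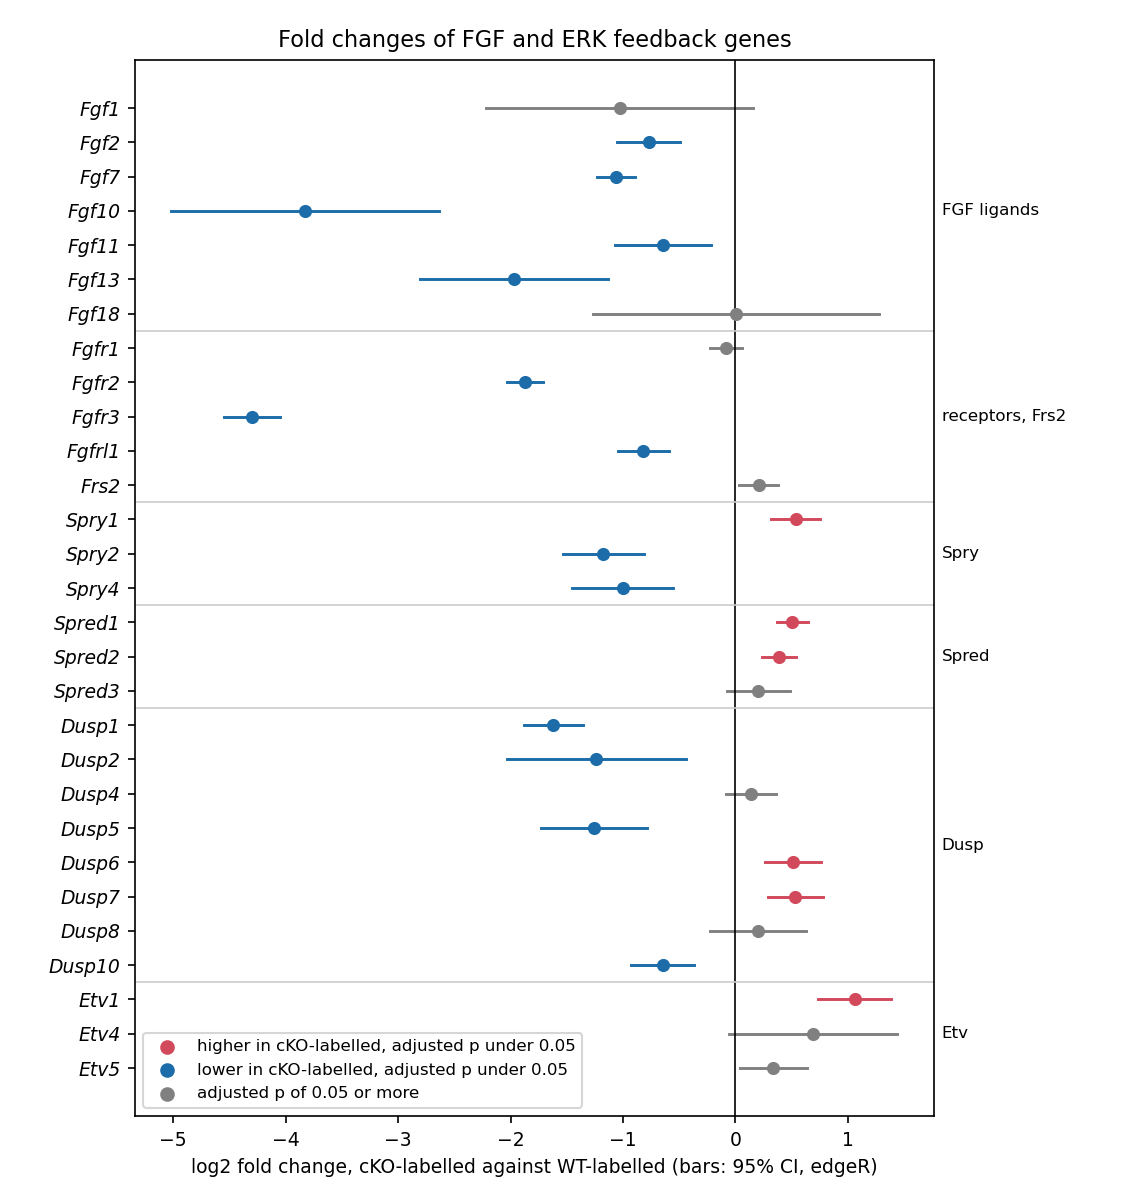
Log2 fold change of each tested gene (cKO-labelled against WT-labelled, edgeR) with its 95% confidence interval as a bar; blue marks a fall and red a rise at an adjusted p under 0.05. Fgfr3 (-4.30) and Fgf10 (-3.83) lie farthest left, Fgf10 with a much wider bar, and Etv1 (1.06) lies farthest right.

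Among the sprouty genes, which encode inhibitors of receptor tyrosine kinase signalling, 1 rose and 2 fell. Spry2 went from 27.5 and 36.4 CPM to 13.3 and 14.9 CPM, a 2.26-fold fall (log2 fold change -1.18, SE 0.150, adjusted p = 0.00242). Spry1 moved the other way, from 14.1 and 13.8 CPM to 19.6 and 20.8 CPM, a 1.45-fold rise (log2 fold change 0.53, SE 0.0904, adjusted p = 0.00692). Neither gene's groups overlapped, and the gene with the most sprouty RNA per length changed with the label. Spry2 held 66.4% and 71.6% of the summed sprouty TPM in WT-labelled libraries and Spry1 held 52.5% and 51.2% in cKO-labelled libraries. Spry4 went from 5.77 and 7.29 CPM to 3.05 and 3.42 CPM (log2 fold change -1.003, adjusted p = 0.00985). The Spry4 call was lost without cKO library 1 (adjusted p = 0.0648). The Spry1 call was lost without cKO library 1 (adjusted p = 0.0532), without cKO library 2 (adjusted p = 0.0986) and with the cKO-labelled libraries summed to 1 sample (adjusted p = 0.0591).

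Spry1 and Spry2, which moved in opposite directions, both carried m6A peaks in coding sequence. The windows below are the GGAC nearest to the summit of the stronger peak in each, at chr3:37541614-37541637 on the plus strand for Spry1 and chr14:106292418-106292441 on the minus strand for Spry2 (mm9), with GGAC in capitals.
Spry1: actatgacagGGACactcagcctg
Spry2: acaggtgtgaGGACtgcggcaagt
The Spry2 peak had a fold enrichment of 7.67, ranked 742 of all 10160 peaks, and held 6 GGAC. Spry1 had peaks of 4.19-fold with 7 GGAC and 4.17-fold with 3 GGAC.

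The Spred genes encode sprouty-related membrane proteins that recruit neurofibromin to Ras, and 2 of 3 rose. Spred1 was the more abundant, with 104 and 104 CPM in WT-labelled and 145 and 149 CPM in cKO-labelled libraries, a 1.42-fold rise (log2 fold change 0.50, SE 0.0571, adjusted p = 0.00151). Spred2 rose 1.31-fold, from 52.8 and 51.01 to 66.6 and 69.2 CPM (log2 fold change 0.39, adjusted p = 0.00620). Both were modest in size and tight between replicates, and Spred1 kept its call without each library. The Spred2 call was lost without cKO library 1 (adjusted p = 0.0715), without cKO library 2 (adjusted p = 0.119) and with the cKO-labelled libraries summed (adjusted p = 0.0800). Spred3, which lacks a working c-Kit binding domain, had 7.84 and 8.14 against 9.41 and 9.005 CPM (log2 fold change 0.20, adjusted p = 0.230).

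The 8 Dusp genes divided, with 4 lower and 2 higher. Dusp1, a nuclear phosphatase induced by stress and growth factors that acts on p38, JNK and ERK, stood at 254 and 314 CPM in WT-labelled libraries and at 89.6 and 95.2 CPM in cKO-labelled libraries. The groups lay far apart, 284 ± 41.9 against 92.4 ± 3.98 CPM (SD, n = 2), a 3.07-fold fall (log2 fold change -1.62, SE 0.107, adjusted p = 0.000178). Dusp5, a nuclear phosphatase selective for ERK, went from 9.35 and 7.61 CPM to 3.01 and 4.02 CPM, 2.40-fold lower (log2 fold change -1.26, SE 0.195, adjusted p = 0.00500). Dusp2, also nuclear, had 2.51 and 2.65 against 1.45 and 0.784 CPM (log2 fold change -1.24, adjusted p = 0.0329), a call lost without cKO library 2 (adjusted p = 0.228) and with the cKO-labelled libraries summed (adjusted p = 0.0630). Dusp10, which prefers p38 and JNK, went from 10.8 and 10.3 to 6.60 and 6.87 CPM (log2 fold change -0.65, adjusted p = 0.00857), a call lost without cKO library 1 (adjusted p = 0.0947), without cKO library 2 (adjusted p = 0.0748) and with the cKO-labelled libraries summed (adjusted p = 0.0720).

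The 2 Dusp genes that rose both encode cytoplasmic phosphatases selective for ERK. Dusp6 went from 32.0 and 26.7 CPM to 41.1 and 42.7 CPM, 1.43-fold higher (log2 fold change 0.51, SE 0.102, adjusted p = 0.0125). Dusp7 went from 73.4 and 59.7 CPM to 94.97 and 97.8 CPM, 1.45-fold higher (log2 fold change 0.53, SE 0.102, adjusted p = 0.0108). Neither rise reached 2-fold, and the WT-labelled libraries differed more from each other than the cKO-labelled ones did. The Dusp6 call was lost without cKO library 1 (adjusted p = 0.0549), without cKO library 2 (adjusted p = 0.0828) and with the cKO-labelled libraries summed (adjusted p = 0.0566), and the Dusp7 call without cKO library 2 (adjusted p = 0.0536). Dusp4 (log2 fold change 0.14, adjusted p = 0.312) and Dusp8 (0.20, adjusted p = 0.431) did not pass, although Dusp8 did without WT library 2 (adjusted p = 0.00634).

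Per length, the 8 Dusp genes summed to 270 and 296 TPM in WT-labelled and 160 and 168 TPM in cKO-labelled libraries. Dusp1 was 72.7% and 78.7% of the sum in WT-labelled and 45.3% and 46.0% in cKO-labelled libraries. Dusp7 went from 12.1% and 8.70% to 27.6% and 27.6%, and Dusp6 from 6.09% and 4.53% to 13.9% and 13.9%. Dusp1 thus remained the most abundant of the 8 per length in every library. Of 13 tested Dusp genes outside the list, 3 were lower (Dusp14, Dusp15 and Dusp18, named after their values were seen) and none was higher, beside 16.8% and 13.7% of all genes tested. In the other families, Etv6 was higher (log2 fold change 0.28, adjusted p = 0.0181 by edgeR), and Etv3 and Fgf14 were not called.

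Dusp5, which fell, held the m6A peak with the highest fold enrichment of all 34 genes, and Dusp6, which rose, held 2 peaks with lower fold enrichments. By pileup the order was reversed, with 39 for that Dusp5 peak (ranked 6937 of all 10160 peaks) and 101 and 78 for the Dusp6 peaks. The GGAC nearest to the summit, in capitals, lay at chr19:53615569-53615592 (plus strand, mm9, exon 4 of 4) for Dusp5, and at chr10:98727343-98727366 (plus strand, mm9, exon 2 of 4) for Dusp6.
Dusp5: tggcttcatgGGACagctccttca
Dusp6: atagtgcaacGGACtctgatggca
The adenine in the Dusp5 window lay 7 bases from a summit with a fold enrichment of 10.7, ranked 197 of all peaks, and that in the Dusp6 window 6 bases from a summit of 3.10-fold. Dusp1, in contrast, had the lowest fold enrichment among the genes, at 2.08 shortly before its stop codon.

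Promoters were read for motifs bound by factors that act with ERK, from the RefSeq windows of GRCm38.p6 (250 bases before to 50 after the gene start, both strands), which matched 29 of the 34 genes. The CRE letters TGACGTCA were present in Dusp1 and Dusp8, 2 of the 29, and in 2.03% of all 27025 genes with a window. The AP-1 letters TGAGTCA were in none of the 29 (5.95% of all genes), and the ETS letters CCGGAAGT were in Fgfrl1 and Frs2 (4.31% of all genes). The Dusp1 match, at chr17:26508598-26508625 on the minus strand, and a Dusp8 match, at chr7:142095374-142095401 on the minus strand, are shown with the motif in capitals because both genes encode phosphatases of the same family.
Dusp1: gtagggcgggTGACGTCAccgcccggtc
Dusp8: cccgctccgcTGACGTCAcctgcccccg
Dusp1 fell and Dusp8 was not called, so the same letters stood in the promoters of genes with different fold changes.

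The Etv genes encode ETS transcription factors of the PEA3 group, and 1 of 3 rose. Etv1 went from 7.07 and 5.87 CPM to 12.9 and 14.1 CPM, 2.08-fold higher (log2 fold change 1.06, SE 0.134, adjusted p = 0.00237). It was the largest rise among the 29 genes, its groups did not overlap, and its call held without each library. Etv5, the most abundant of the 3 per length (86.2% and 81.4% of the summed TPM in WT-labelled and 76.3% and 73.2% in cKO-labelled libraries), had 56.7 and 43.4 against 62.7 and 63.7 CPM (log2 fold change 0.33, 95% confidence interval 0.04 to 0.63, adjusted p = 0.0883). The log2 fold change of Etv5 was 0.55 without WT library 1 and 0.15 without WT library 2. Etv5 was called higher with the replicate number as a block (0.35, adjusted p = 0.0280) and with no filter on low counts (0.34, adjusted p = 0.000829). The edgeR fit with no filter gave far smaller adjusted p in general (Fgfr3: 1.01e-253 against 4.04e-06 in the main fit). Its call of Etv5 therefore cannot be weighed like one of the main fit. Etv4 had 0.828 and 1.20 against 1.73 and 1.54 CPM (log2 fold change 0.69, adjusted p = 0.143), and it was called without WT library 2 (adjusted p = 0.0273).

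Of 63 other pathway genes tested, 16 were higher and 18 were lower, beside 13.7% and 16.8% of all genes tested. Their median log2 fold change was 0.01, and fewer were called when either cKO-labelled library was left out. The core cascade held few of the calls. Of 23 genes from Grb2 to the RSK kinases, 4 rose and none fell, beside the same 13.7% and 16.8% of all genes. The median log2 fold change of the 23 was 0.10. The rises of Cbl, a ubiquitin ligase that removes active receptors (0.49, adjusted p = 0.0186), Rps6ka2, a kinase below ERK (0.45, adjusted p = 0.0221), and Sos1, an exchange factor for Ras (0.38, adjusted p = 0.0147), were all under 2-fold. All 3 calls were lost with the cKO-labelled libraries summed to 1 sample, at adjusted p of 0.0667, 0.117 and 0.116, and without either cKO-labelled library. Without cKO library 1 the adjusted p of Cbl, Rps6ka2 and Sos1 was 0.0736, 0.1103 and 0.199, and without cKO library 2 it was 0.0769, 0.161 and 0.0708. ERK and MEK genes were not called.

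Co-receptors and modulators of FGF binding changed in both directions, with 9 higher and 6 lower of 19 tested (13.7% and 16.8% of all genes). Il17rd, which encodes the FGF antagonist Sef, rose 4.84-fold from 1.006 and 0.708 CPM to 4.29 and 4.11 CPM (log2 fold change 2.27, adjusted p = 0.00138). The heparan sulfate proteoglycan gene Gpc4 (1.57, adjusted p = 2.18e-05) and Sulf1, an enzyme that trims sulfate from heparan sulfate (1.37, adjusted p = 4.07e-05), rose as well. Flrt3, a membrane protein that binds FGF receptors, fell 9.61-fold, from 13.2 and 12.9 CPM to 1.403 and 1.32 CPM (log2 fold change -3.26, adjusted p = 3.88e-05). Sdc4, a syndecan, went from 450 and 523 CPM to 219 and 218 CPM (-1.15, adjusted p = 0.000242). Klb, the β-klotho gene, had 41 and 27 against 12 and 8 counts (-1.58, adjusted p = 0.0390), a call lost without cKO library 1 (adjusted p = 0.0826) and without cKO library 2 (adjusted p = 0.312).

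Other genes listed here as outputs of ERK were lower for 12 of 21 and higher for 3, beside 16.8% and 13.7% of all genes tested. Their median log2 fold change was -0.56. The immediate early genes Egr1, Egr2 and Egr3 were not called (edgeR adjusted p = 0.306, 0.601 and 0.343). Others were called lower: Fos (log2 fold change -1.93, adjusted p = 7.49e-05), Fosl1 (-2.50, 4.09e-05), Ier3 (-2.54, 0.000140), Ier2 (-0.30, 0.0409) and Myc (-0.56, 0.00714). Hbegf, a ligand of the EGF receptor, fell 15.4-fold from 62.9 and 68.6 CPM to 5.24 and 3.42 CPM (log2 fold change -3.95, adjusted p = 3.60e-05). Fosb, an immediate early gene, fell 9.29-fold from 14.8 and 15.8 CPM to 1.73 and 1.57 CPM (log2 fold change -3.22, adjusted p = 3.57e-05). Areg, another EGF receptor ligand, had 42 and 46 counts in WT-labelled libraries and 0 and 1 in cKO-labelled libraries, too few for a reliable fold. Epha4, an ephrin receptor, rose 3.58-fold (1.84, adjusted p = 0.000344), and the ETS genes Elk3 (0.46, adjusted p = 0.00918) and Ets1 (0.28, adjusted p = 0.0247) rose by less. The list was broad, since its ETS genes (Ets1, Ets2, Elk1, Elk3 and Elk4) encode transcription factors and need not be switched on by ERK. The calls of Elk3 and Ets1 were lost with the cKO-labelled libraries summed (adjusted p of 0.0546 and 0.234), without cKO library 1 (0.0525 and 0.239) and without cKO library 2 (0.0760 and 0.260). Of the other cell type lists, endothelial markers summed to 3.64 and 3.22 CPM in WT-labelled and 17.1 and 14.5 CPM in cKO-labelled libraries. Of 3 tested, Kdr and Emcn were higher. Cdh5 was not called (log2 fold change -1.16, adjusted p = 0.128 by edgeR). Of those not tested, Pecam1 had lower values (0.266 and 0.248 against 0.165 and 0.157 CPM) and Tek higher ones. Neutrophil markers summed to 2.75 and 3.64 CPM against 0.825 and 0.377 CPM, with S100a8, the 1 tested, lower (log2 fold change -2.43, adjusted p = 0.00475) and S100a9 and Mpo at 0. Adipocyte markers summed to 57.0 and 66.2 CPM against 57.5 and 56.4 CPM, with Adipoq and Plin1 higher and Cidec (-2.54) and Retn (-2.40) lower of 6 tested, and the part of these cells in the fold changes was not tested.

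**Figure D3:**
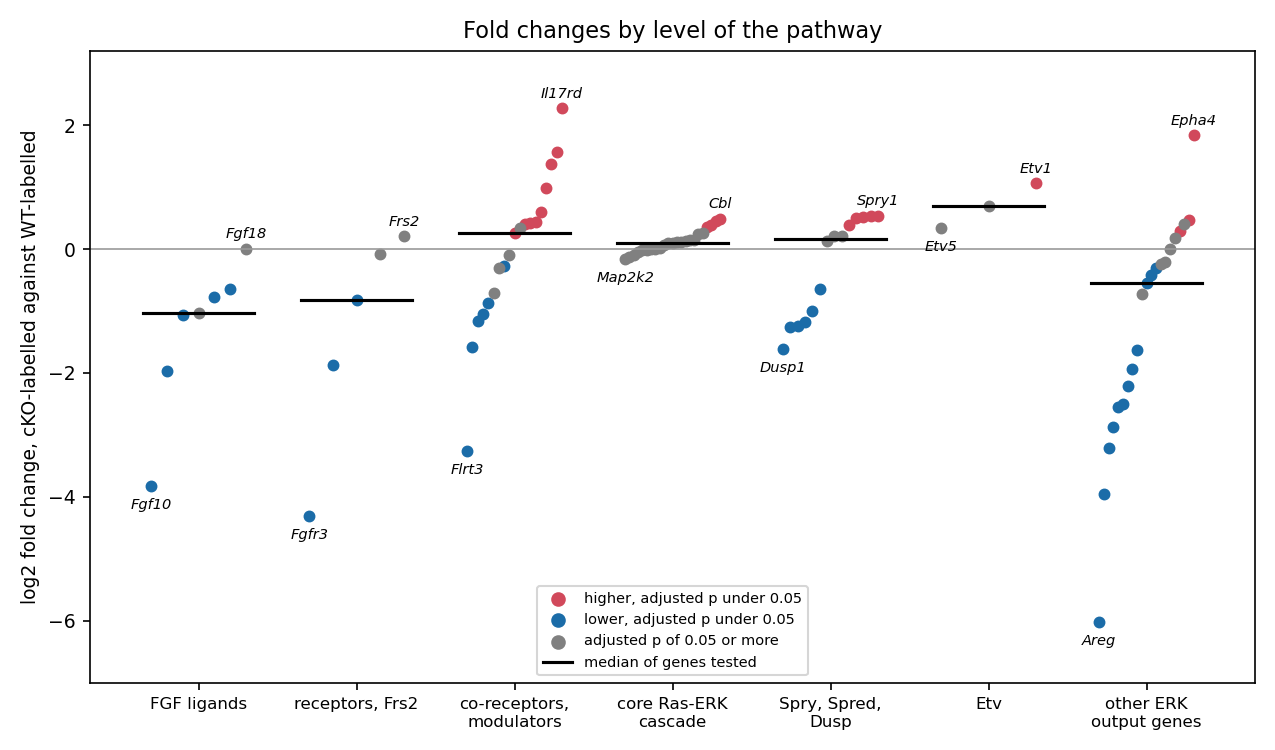
Log2 fold changes (cKO-labelled against WT-labelled) of all tested genes by level of the pathway, 1 point a gene, red for a rise and blue for a fall at an adjusted p under 0.05, with black lines for medians. The medians of ligands (-1.03, with Fgf11 and Fgf13 counted among them) and receptors (-0.82) lie below 0, and that of core cascade genes (0.10) lies close to 0. Other ERK output genes (-0.56) reach lowest at Areg, whose fitted value rests on 1 count in the cKO-labelled libraries and is no bound.

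In wild type cells, 16 of the 29 tested genes (55.2%) had an m6A peak with its summit in an exon, against 5619 of 14118 tested genes with a gene model (39.8%). Highly expressed genes have peaks called more readily, and at a mean of at least 10 CPM the shares were 13 of 16 (81.2%) and 49.0%. The 3 such genes without a listed peak were Fgf2, Fgfr3 and Fgfrl1, all lower in cKO-labelled libraries, and the lack of a listed peak does not show that a transcript is unmethylated. Of the 11 Fgf genes, Fgf7 alone had a peak in an exon, and it was the only exonic peak of the genes without a GGAC. Most Fgf genes were scarce: 4 were not tested, and only Fgf2 and Fgf7 reached a mean of 10 CPM, where 49.0% of all genes had a peak. The count therefore does not show that Fgf transcripts lack m6A.

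The 16 genes had 21 exonic peaks, 15 in coding sequence, 5 in a 3′ UTR and 1 in a 5′ UTR, and 20 held at least 1 GGAC. Of these, 9 lay within 200 bases of the last coding base along the transcript. Fold enrichments ran from 2.08 to 10.7 with a median of 4.01, close to the median of 4.03 over all 10160 peaks. After Dusp5 and Spry2, the highest fold enrichment was that of Dusp8 (chr7:149268468-149268978, mm9) at 7.63-fold in coding sequence, followed by Spred2 (chr11:19920818-19921272, mm9) at 5.85-fold. Spry4 had its peak in the 3′ UTR at 4.96-fold, Dusp4 at 3.96-fold and Etv5 at 2.45-fold. A further 3 peaks had summits in introns of Fgf7, Fgfr2 and Frs2.

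Peaks were present on genes that rose and on genes that fell. Of the 6 genes that rose, 5 had a peak (Spry1, Spred1, Spred2, Dusp6 and Dusp7, the exception being Etv1), beside 62.6% of all genes that rose. Of the 14 genes that fell, 6 had a peak (Fgf7, Fgfr2, Spry2, Spry4, Dusp1 and Dusp5), beside 29.4% of all genes that fell. Of the 9 not called, 5 had a peak, beside 37.7%. The shares stood in the same order as over all genes, with few genes behind each. No m6A data from cKO cells were analysed here, so a change in methylation could not be measured.

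**Figure D4:**
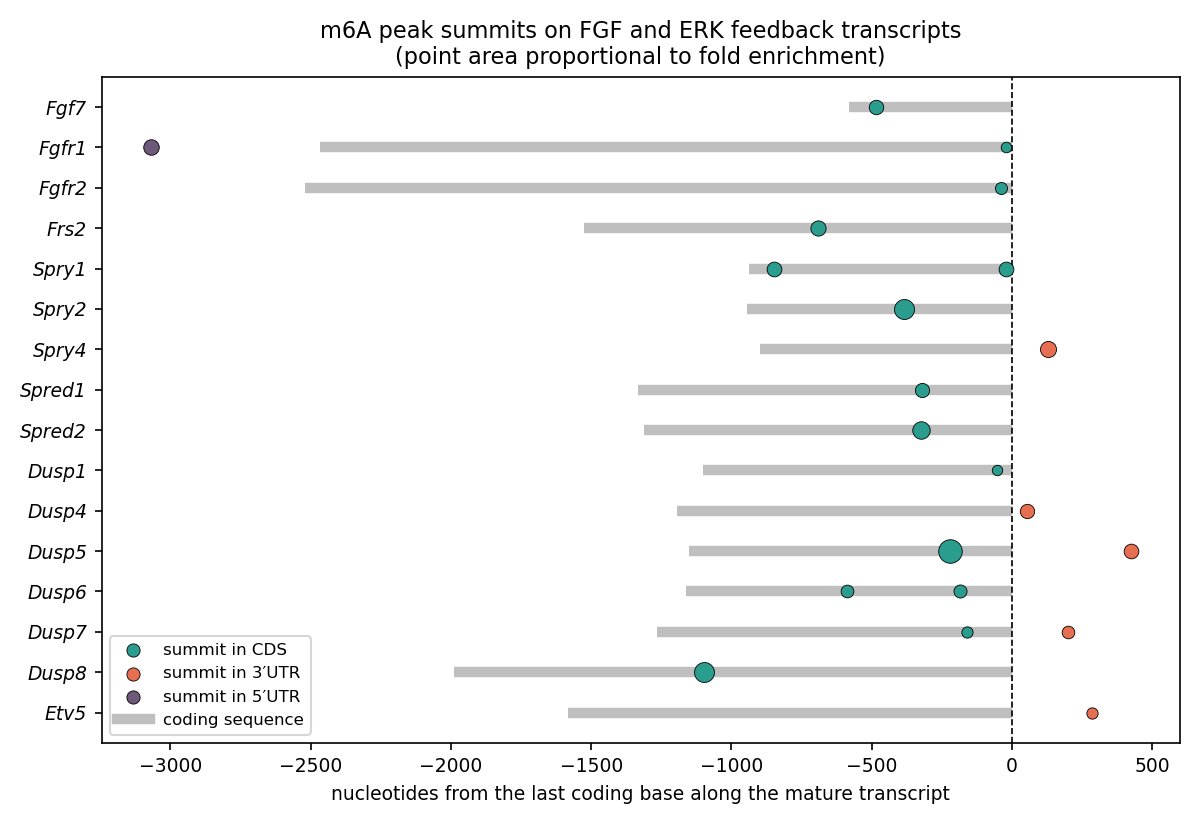
Position of the 21 exonic m6A peak summits on the 16 transcripts, in bases from the last coding base along the mature mRNA (0, dashed line), with grey bars for the coding sequence and point area for fold enrichment. The summits of 9 peaks sit within 200 bases of the dashed line, and the largest points are those of Dusp5 (10.7), Spry2 (7.67) and Dusp8 (7.63), all inside the coding sequence.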

How the data were processed

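RNA-seq libraries (2 WT-labelled, 2 cKO-labelled) and 1 peak list for 2 m6A immunoprecipitates and 2 inputs were used, grouped by the sample titles. As deposited by the authors, the expression table gave unscaled estimated counts (reads mapped with HISAT2 2.0.4; the counter and its strand setting are not given in the sources used here), and a value headed FPKM. In the deposited table the latter sums to 1000000 in each library, so it is on the TPM scale, normalized by the authors for length and depth. The authors also deposited, for each peak on mm9, the pileup signal at the summit, the fold enrichment as a ratio, and the p-value (not used here) and q-value as −log10, in the layout of MACS2, which the submitters' notes name with TopHat. Whether the immunoprecipitates were pooled is not given in the sources used here, so peaks have no replicate error.

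Counts were rounded, and the 89 of 47732 entries without a gene name (0.110% to 0.125% of a library's counts) were left out. Genes kept by filterByExpr were scaled by TMM (factors 0.987 to 1.01) and tested two-sided with edgeR 4.0.16 in R 4.3.3 (glmQLFit and glmQLFTest, no block) with Benjamini-Hochberg adjustment over all 15327 genes, called at 0.05. CPM are TMM-scaled. An exact permutation test of 2 against 2 libraries cannot go below p = 0.333. Replicate numbers were not paired by any source, and deviations of same-numbered libraries correlated at 0.03. Peaks were assigned by summit to exons of GENCODE vM1 on NCBIM37, and the 24-base windows were read from that genome. Fits were tested on simulated data. Alternatives were DESeq2 1.42.0, limma 3.58.1 with trend (TPM plus 0.1, log2 scale), a plain linear model per gene (TPM plus 1, log2 scale, mean TPM of at least 1), median-of-ratios scaling, no filter, a replicate block, each library left out, a 2-fold minimum, stricter peak thresholds and, chosen after seeing the data, the cKO-labelled libraries summed.

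The 34 genes and the lists were chosen with earlier results of these data known. All 34 genes and Mettl3 are named, and in each other pathway list the 3 largest rises and the 3 largest falls past the threshold. Beyond this rule, immediate early genes of the ERK output list are named as well. Floors of 3 counts cover counting error only.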

Additional observations from a re-analysis of the deposited data

How the results depend on the processing

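All 20 called genes of the 34 kept their direction under every alternative that could fit them, and 12 lost their call at most in the plain linear model, where 115 genes in all, 0 of the 34 higher and 0 lower, and 1 higher and 1 lower pathway gene passed. With the cKO-labelled libraries summed to 1 sample, 2012 genes passed, with 3 of the 34 higher and 6 pathway genes higher. Leaving out 1 library at a time gave 1867 to 8750 genes, 2 to 10 of the 34 higher, 11 to 16 lower, and 6 to 25 pathway genes higher and 13 to 22 lower. The larger counts came without a WT-labelled library, when the spread was estimated from the cKO-labelled pair alone and the lone library was assumed to vary like it. A 2-fold minimum left 1 of the 34 higher. With no filter on low counts 5874 genes passed, with 7 of the 34 higher and 16 lower, but adjusted p were far smaller in that fit than in the main fit. The replicate block gave 4881 genes, with 7 of the 34 higher and 14 lower and 18 and 17 pathway genes, the added gene among the 34 being Etv5. DESeq2 lost Fgf11 (adjusted p = 0.154) and Dusp2 (adjusted p = 0.0559), and limma on TPM also lost Spry4 (adjusted p = 0.0541) and Dusp10 (adjusted p = 0.0627). Values near 0 changed sign: Fgf18 at -0.029 with the block, -0.027 with DESeq2 and between -0.50 and 0.69 over left-out libraries, Fgfr1 at 0.11 with limma on TPM and 0.11 in the linear model, and Mettl3 between -0.078 and 0.023 over left-out libraries. With peaks of at least 3-fold, 13 of the 34 kept a peak, and at a −log10 q of at least 10, 12 did. With 2 libraries a group of unknown origin, counts under about 20 a library, as for Fgf18, carry wide intervals.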
